A study of Mus musculus with 2 samples.

Results

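Timd4+ Ccr2- macrophages were 438 of 2243 macrophages found by a gate on gene counts, among 15964 cells that passed quality limits in suspensions of mouse heart depleted of cardiomyocytes. A cell entered the gate with at least 1 UMI (a uniquely tagged transcript) in at least 3 of the 6 macrophage genes C1qa, C1qb, C1qc, Fcgr1, Csf1r and Adgre1. The 4 fibroblast genes Dcn, Col1a1, Col1a2 and Col3a1 together had to stay under 0.3% of its UMIs. A gated cell was counted as a member with at least 1 UMI of Timd4 and 0 UMIs of Ccr2. The cells were thus chosen by their measured counts of these genes, whose levels describe the choice and are not results. The TAC (transverse aortic constriction) library, made after surgery that constricts the aorta so that the heart pumps against raised pressure, held 101 members and 973 other gated macrophages. The Sham library, made after the operation without the constriction, held 337 members and 832 others.

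Both libraries came from male C57BL6/J wildtype mice, 20 days after surgery, and the number of hearts behind each is not given in the sources used here. The cells had passed enzymatic digestion, settling of cardiomyocytes by gravity, lysis of red cells, removal of debris and a sort for DAPI-negative cells, so every share is a share of sorted cells. Each group was 1 library on 1 lane of a droplet instrument that tags transcripts near their end. With 1 library per group no test was possible, no difference between TAC and Sham has a replicate check, and surgery and library cannot be told apart. All intervals below are exact 95% intervals and cover counting error only.

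Timd4 encodes TIM-4, a receptor for phosphatidylserine, the lipid that dying cells expose on their surface. In mouse heart, macrophages with Timd4, Lyve1 and Folr2 and without Ccr2 are known as a resident population that is seeded early in life and renews itself in the tissue, whereas Ccr2 marks macrophages replenished from blood monocytes. Resident cells of this kind are known for taking up dying cells and debris and for low MHC class II, the molecules that present peptides to helper T cells.

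Gated macrophages were 13.4% (12.7 to 14.2) of 8000 cells in the TAC library and 14.7% (13.9 to 15.5) of 7964 cells in the Sham library. The TAC library was deeper, with a median of 11237 UMIs per cell against 4895.5 in the Sham library. Members had a median of 10984 UMIs in TAC and 5101 in Sham, and other macrophages 9852 and 4396. Mitochondrial UMIs had a median of 5.75% in TAC members and 5.33% in other TAC macrophages, against 4.53% in both kinds of Sham cell. The libraries shared 15 cell barcodes, of which 1 belonged to a gated macrophage and 0 to a member. A doublet caller marked 2 members in TAC and 2 in Sham.

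The share of macrophages that were Timd4+ Ccr2- was lower in the TAC library. It was 9.40% (7.725 to 11.3) of 1074 gated cells in TAC and 28.8% (26.2 to 31.5) of 1169 in Sham, 3.07-fold lower in TAC (2.45 to 3.87). Among all cells passing the limits, members were 1.26% (1.03 to 1.53) in TAC and 4.23% (3.80 to 4.70) in Sham. Because a deeper cell is more likely to show a UMI of Timd4 and also of Ccr2, the share was taken again after thinning every cell to 2500 UMIs. Members were then 45 of 1044 cells in TAC, 4.31% (3.16 to 5.73), and 241 of 1073 in Sham, 22.5%. They were chosen again on the thinned counts, here and wherever values at this depth are given. By this choice 60 TAC and 100 Sham members fell among the other macrophages. Of the cells chosen, 4 in TAC and 19 in Sham had not been members at their own depth. The share was 5.21-fold lower in TAC (3.78 to 7.33) at this depth, which left out 30 TAC and 96 Sham gated cells as too shallow. At 4000 UMIs per cell the shares were 5.93% in TAC and 32.7% in Sham, 5.51-fold lower in TAC (4.14 to 7.43). These shares describe how many cells met the rule, since the rule itself reads Timd4 and Ccr2. Timd4 was seen at 2500 UMIs in 0 of 5349 TAC cells rich in fibroblast genes, which by a limit of 3 counts allows a share of cells with a UMI of up to 0.0561%, and in 0.0855% of 5846 such Sham cells.

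**Figure D1:**
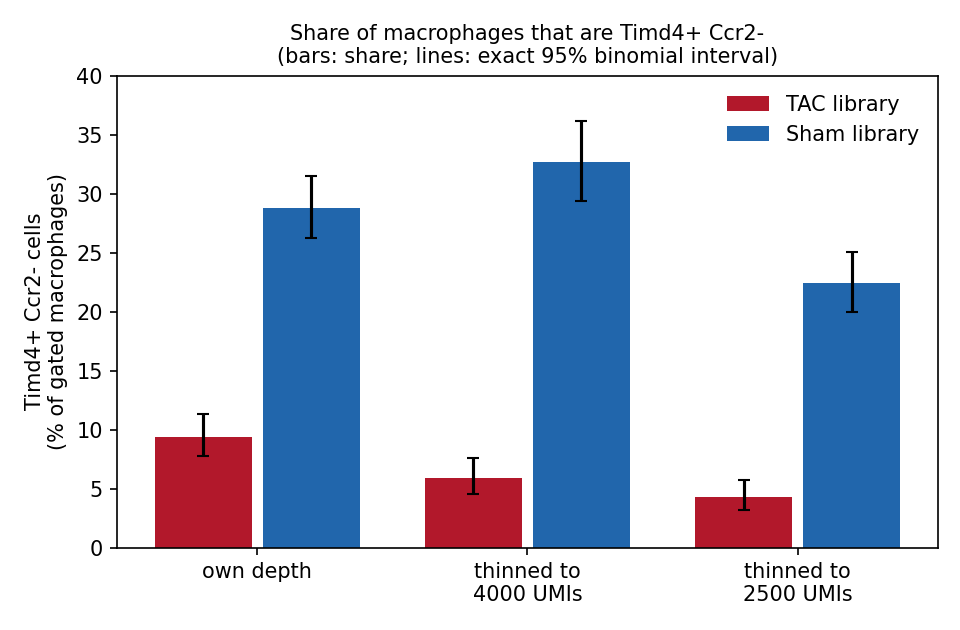
Share of gated macrophages that were Timd4+ Ccr2- (vertical axis, percent) in the TAC library (left bar of each pair) and the Sham library (right bar), at each cell's own depth and after thinning to 2500 and to 4000 UMIs. Lines are exact 95% intervals for counting error; the TAC share is 9.40%, 4.31% and 5.93% at the 3 depths, below the Sham share of 28.8%, 22.5% and 32.7%.

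Many members sat at the edge of the rule. Of the TAC members 50 had a single Timd4 UMI, 24 had 2 and 27 had 3 or more, with 14 at most. Of the Sham members 131 had 1, 92 had 2 and 114 had 3 or more, with 11 at most. Just outside the rule on the Timd4 side were 433 TAC and 533 Sham cells with 0 UMIs of both genes. Just outside on the Ccr2 side were 5 TAC and 18 Sham cells with Timd4 and a single Ccr2 UMI. All cells with UMIs of both genes numbered 71 in TAC and 106 in Sham, and their median depth, 34441 UMIs in TAC and 13397.5 in Sham, was far above that of members. Lyve1 stood at 618, 945 and 1201 CPM (UMI counts scaled to a common library total of 1000000) in TAC members with 1, 2 and 3 or more Timd4 UMIs, against 179 CPM in TAC cells with 0 of both genes. In Sham these levels were 938, 1146 and 1692 CPM, against 365 CPM in cells with 0 of both. Cd163 did not follow Lyve1, at 714, 765 and 426 CPM in TAC members with 1, 2 and 3 or more Timd4 UMIs and 568, 585 and 585 CPM in Sham members. The level of Lyve1 was thus higher in members with more Timd4 UMIs in both libraries, and members just inside the rule were above the cells just outside it.

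The other markers of the label were checked first. Lyve1 (a hyaluronan receptor, chr7:110850607-110863239, GRCm38) was at 883 CPM in TAC members and 148 CPM in other TAC macrophages, and at 1311 CPM in Sham members and 446 CPM in other Sham macrophages. Folr2 (the folate receptor beta, chr7:101839988-101857194) was at 994 and 215 CPM in TAC members and others, and at 1461 and 599.9 CPM in Sham members and others. Cd163 (the receptor for haemoglobin bound to haptoglobin, chr6:124304656-124330527) was at 631 and 231 CPM in TAC members and others, and at 579.8 and 280.3 CPM in Sham members and others. All 3 were higher in members than in other macrophages of the same library. Lyve1 was 5.98-fold higher in TAC (5.55 to 6.43) and 2.94-fold in Sham (2.78 to 3.11), Folr2 4.63-fold and 2.44-fold, and Cd163 2.73-fold and 2.07-fold. At least 1 UMI of each of the 3 was seen in 76 TAC members (75.2%) and 244 Sham members (72.4%), and 1 TAC and 4 Sham members had none of them. At 2500 UMIs per cell Lyve1 was seen in 71.1% of TAC members and 16.3% of other TAC macrophages, against 0.748% of cells rich in fibroblast genes. In Sham it was seen in 80.5% of members and 35.8% of others, against 0.239% of cells rich in fibroblast genes. The markers therefore went with the label in both libraries, while other macrophages carried them at lower and not at background levels.

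The promoters of 4 marker genes, from 250 bases before to 50 bases after the annotated start in RefSeq (GRCm38.p6), are shown: that of Timd4, which the rule used, and those of Vsig4, Fcna and Cd163, whose levels differed between members and other macrophages. Capitals mark matches to the half-site of the MAF family, factors of resident macrophages, which is TGCTGA on the strand of the gene or, where it lies on the opposite strand, TCAGCA. They also mark the core of PU.1, a factor of all macrophages, which is GAGGAA on the strand of the gene or, where it lies on the opposite strand, TTCCTC. The letters of one motif cannot overlap those of the other beyond shared end bases. Of 32851 RefSeq promoters of this length, 19.5% hold the first and 28.3% the second. Timd4 (chr11:46810549-46810848, plus strand) holds 2 MAF and 0 PU.1 matches, Vsig4 (chrX:96293389-96293688, minus strand) 1 and 2, Fcna (chr2:25627925-25628224, minus strand) 2 and 4, and Cd163 (chr6:124304401-124304700, plus strand) 0 and 0. A match describes the letters only. Of 6 marker genes looked up, 5 had an entry; Lyve1 had none, and Folr2, not printed, had 2 entries with 1 MAF and 0 PU.1 matches each.
Timd4: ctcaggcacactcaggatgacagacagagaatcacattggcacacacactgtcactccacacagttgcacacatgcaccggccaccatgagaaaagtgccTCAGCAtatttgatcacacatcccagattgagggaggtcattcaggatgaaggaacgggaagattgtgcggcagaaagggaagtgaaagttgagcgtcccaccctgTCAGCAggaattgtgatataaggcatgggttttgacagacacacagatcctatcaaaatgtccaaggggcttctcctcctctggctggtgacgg
Vsig4: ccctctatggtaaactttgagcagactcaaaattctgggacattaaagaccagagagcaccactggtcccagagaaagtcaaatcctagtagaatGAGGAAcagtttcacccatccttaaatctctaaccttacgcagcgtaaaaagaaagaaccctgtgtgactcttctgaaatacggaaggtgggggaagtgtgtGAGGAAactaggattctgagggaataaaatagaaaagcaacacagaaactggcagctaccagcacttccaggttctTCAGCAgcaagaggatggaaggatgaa
Fcna: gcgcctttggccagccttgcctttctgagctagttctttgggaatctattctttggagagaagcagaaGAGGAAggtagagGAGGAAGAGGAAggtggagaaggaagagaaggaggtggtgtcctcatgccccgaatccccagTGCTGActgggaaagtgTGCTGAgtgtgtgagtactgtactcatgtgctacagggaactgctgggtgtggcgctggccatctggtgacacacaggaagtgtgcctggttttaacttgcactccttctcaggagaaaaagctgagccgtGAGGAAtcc
Cd163: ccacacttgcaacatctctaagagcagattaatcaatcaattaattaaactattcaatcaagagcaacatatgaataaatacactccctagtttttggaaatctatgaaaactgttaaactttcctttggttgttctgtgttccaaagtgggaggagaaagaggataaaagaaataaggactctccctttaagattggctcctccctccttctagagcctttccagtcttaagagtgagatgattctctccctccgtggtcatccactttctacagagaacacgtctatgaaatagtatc

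Compared with other macrophages of their library, members had more RNA of many resident macrophage genes and less of most measured MHC class II genes in both libraries. Of 3216 genes measured in TAC (at least 50 CPM in either kind of cell), 65, or 2.02%, were at least 2-fold higher in members and 65, or 2.02%, at least 2-fold lower, 4.04% in either direction. In Sham, of 3270 measured genes, 30, or 0.917%, were at least 2-fold higher and 59, or 1.8%, at least 2-fold lower, 2.72% in either direction. The lists hold 22 higher genes in common, 33.8% of the TAC list and 73.3% of the Sham list, and 27 lower genes in common, 41.5% and 45.8%. With the Ccr2 condition left out, so that all Timd4+ cells were members, 14 genes were at least 2-fold higher and 18 lower in TAC. Their share of the genes measured in that setting is not given here. UMIs are summed over cells, so that setting gives much weight to the deeper cells with both Timd4 and Ccr2. In TAC these 71 cells held 2704915 UMIs, against 1280226 in the 101 members. In Sham 106 such cells held 1537436 UMIs, against 2080139 in the 337 members. The main contrast sums 101 TAC members, fewer cells than in any other arm. Across the 2944 genes measured in both libraries the log2 ratios had a Pearson r of 0.629, over genes that are not independent replicates.

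**Figure D2:**
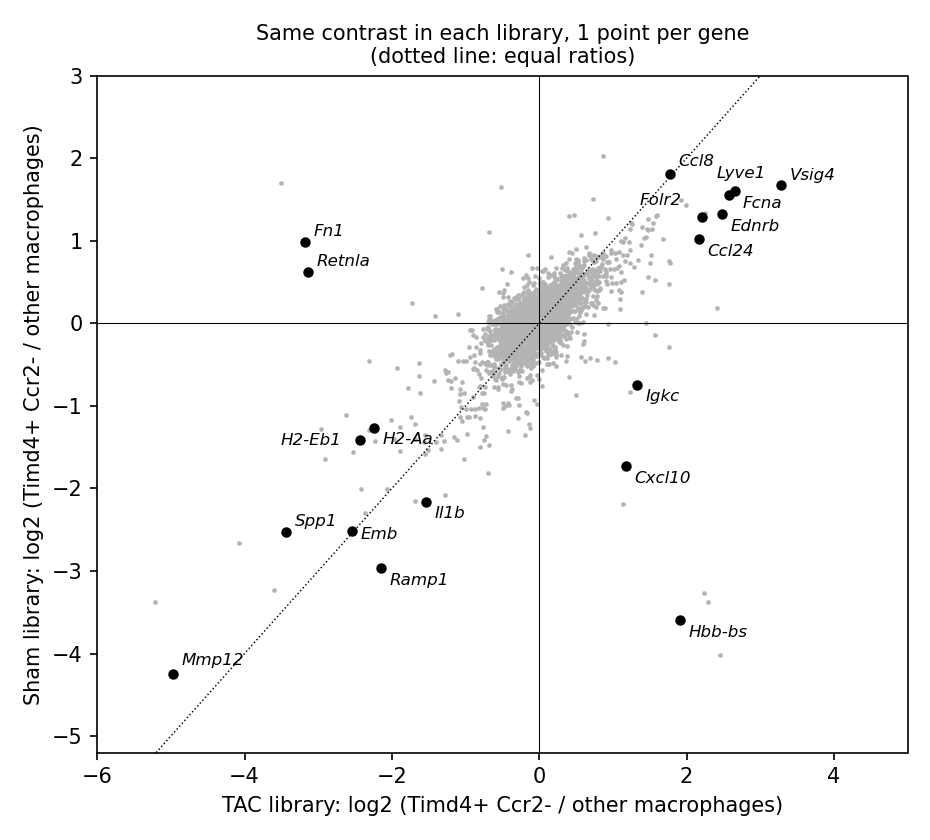
Log2 ratio of members over other macrophages in the TAC library (horizontal axis) and in the Sham library (vertical axis), 1 point per gene measured in either library; named genes are black, and Cd163l1, Igha and Ighg2c lie outside the axes. Vsig4 lies farthest right among the named genes at 3.29 in TAC and 1.68 in Sham, H2-Eb1 and Emb lie low in both, and Fn1, Retnla, Cxcl10, Igkc and Hbb-bs lie in quadrants of opposite sign.

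Of the 26 genes on the list of resident macrophage genes, 21 were measured in TAC and 23 in Sham. Of these, 13 were at least 2-fold higher in members in TAC and 11 in Sham, and 0 at least 2-fold lower in either. The list median was a log2 ratio of 1.40 in TAC and 0.89 in Sham, beside medians of -0.02 and 0.04 over all measured genes. Vsig4, the complement receptor of tissue macrophages that clears particles coated with C3 fragments (chrX:96247203-96293438), was at 383 CPM in TAC members and 38.3 CPM in other TAC macrophages. In Sham it was at 239 CPM in members and 74.0 CPM in others. The ratio was 10.0 in TAC (8.82 to 11.3) and 3.24 in Sham (2.83 to 3.71), and TAC members stood highest of the 4 groups of cells. Fcna, which encodes ficolin A, a secreted lectin that starts the lectin pathway of complement (chr2:25624666-25628030), was at 129 CPM in TAC members and 19.7 CPM in other TAC macrophages, and at 166 CPM in Sham members and 53.9 CPM in others. Members were above the other macrophages in both libraries, 6.56-fold in TAC and 3.07-fold in Sham.

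Further genes of this kind followed the same order. Ltc4s, the synthase of leukotriene C4, was at 444 and 117 CPM in TAC members and others, and at 592 and 209 CPM in Sham members and others. Ednrb, the endothelin B receptor, was at 90.6 and 15.4 CPM in TAC members and others, and at 174 and 69.1 CPM in Sham members and others. Colec12, a scavenger receptor with a collagen stalk and a lectin head, was at 85.1 and 17.0 CPM in TAC members and others, and at 166 and 64.9 CPM in Sham members and others. For Ltc4s, Ednrb and Colec12 the Sham members were the highest group and the other TAC macrophages the lowest. Selenbp1, a selenium-binding protein, was 1.61 higher on the log2 scale in TAC members than in others and 1.31 higher in Sham members. F13a1, the A subunit of coagulation factor XIII, was at 1886 CPM in TAC members and 715 CPM in other TAC macrophages, and at 2534 and 1127 CPM in Sham members and others. Cbr2, a carbonyl reductase, had log2 ratios of 1.68 in TAC and 1.03 in Sham, and the mannose receptor Mrc1 0.90 and 0.59. Mrc1, a common marker of resident macrophages, was thus less than 2-fold higher in members in both libraries. Counting all Timd4+ cells as members, whatever their Ccr2, gave TAC log2 ratios of 2.69 for Vsig4, 1.57 for Ednrb, 1.48 for Colec12, 1.18 for Ltc4s and 0.77 for Selenbp1, so that Selenbp1 no longer reached 2-fold.

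Genes of uptake and clearance differed less than the resident list. Of 30 genes of apoptotic cell clearance, 17 were measured in TAC and 14 in Sham, with medians of 0.12 and 0.31. Gas6, which bridges phosphatidylserine on dying cells to the receptors Mertk and Axl, was at 888 CPM in TAC members and 376 CPM in other TAC macrophages, and at 852 and 459.6 CPM in Sham members and others. Its receptor Mertk was at 103 and 72.2 CPM in TAC members and others, and at 54.3 and 42.8 CPM in Sham members and others. Axl went the other way, at 114 and 218 CPM in TAC members and others and at 81.7 and 169 CPM in Sham members and others. Members thus had more of the bridge and less of Axl in both libraries, with Axl log2 ratios of -0.93 in TAC and -1.04 in Sham. At 2500 UMIs per cell, with members chosen again on the thinned counts, the TAC log2 ratio of Mertk was -0.50 in place of 0.51. Mertk was then seen in 6 of 45 TAC members. Of 27 scavenger and lectin receptors, 17 were measured in TAC and 18 in Sham, with medians of 0.50 and 0.34, and 3 were at least 2-fold higher in each library. These were Fcna, Colec12 and Cd163, all described above, so the lists are not separate sets of genes. Cd163 is also on the lists of iron and haem handling and of glucocorticoid-responsive genes. Stab1, which takes up modified lipoproteins and dying cells, was 1.83-fold higher in TAC members and 1.49-fold in Sham members. The list of iron and haem handling had medians of 0.49 over 12 genes in TAC and 0.41 over 11 in Sham. Hmox1, the enzyme that breaks down haem, was at 491 and 242.5 CPM in TAC members and others, with 22.1% of the member UMIs in 1 cell, and at 419.7 and 266 CPM in Sham members and others. Lysosomal cathepsins and hydrolases had medians of 0.31 and 0.34 over 21 genes in each library, and 0 of them reached 2-fold in either direction.

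Some complement genes were higher in members. Of 20 on the list, 10 were measured in TAC, with a median of 0.49 and 4 at least 2-fold higher, and 9 in Sham, with a median of 0.57 and 2 at least 2-fold higher. Over all measured genes 2.02% in TAC and 0.917% in Sham were at least 2-fold higher. Vsig4, described above with the resident genes, is counted on this list as well and had its highest ratio in both libraries. C4b, a component of the classical and lectin pathways whose near-identical copy C4a could share its reads (chr17:34728380-34743882), was at 669 CPM in TAC members and 221 CPM in other TAC macrophages. In Sham C4b was at 142 CPM in members and 57.3 CPM in others, so members were higher in each library, by 1.59 in TAC and 1.30 in Sham on the log2 scale. C2, the protease partner of C4b, was at 61.7 and 17.4 CPM in TAC members and others, and at 9.61 and 5.30 CPM in Sham members and others, so no Sham ratio is given at these levels.

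Chemokines of the CC family were unequally placed. Ccl8, a ligand of several monocyte and T cell receptors (chr11:82115185-82116799), was at 825 CPM in TAC members and 240.4 CPM in other TAC macrophages, and at 107 CPM in Sham members and 29.8 CPM in others. Members were 3.43-fold higher in TAC (3.20 to 3.68) and 3.58-fold in Sham (2.90 to 4.43), and TAC members were the highest group. Ccl24, an eosinophil attractant, was at 386 and 85.2 CPM in TAC members and others, with 31.8% of the TAC member UMIs in 1 cell, and at 751 and 369 CPM in Sham members and others. Ccl6 had log2 ratios of 1.26 in TAC and 1.20 in Sham, and Ccl9, a neighbour of Ccl6 in the same gene cluster, 1.11 and 1.00. Ccl4, an inflammatory chemokine, was lower in members, at 375 and 738 CPM in TAC members and others and 726 and 1596 CPM in Sham members and others. Over the list of 23 chemokines the medians were 0.82 in TAC, with 6 of 14 measured genes at least 2-fold higher and 1 lower, and 0.10 in Sham, with 3 of 15 higher and 2 lower. Without the Ccr2 condition the TAC log2 ratio of Ccl8 was 1.12 and that of Ccl24 1.26.

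**Figure D3:**
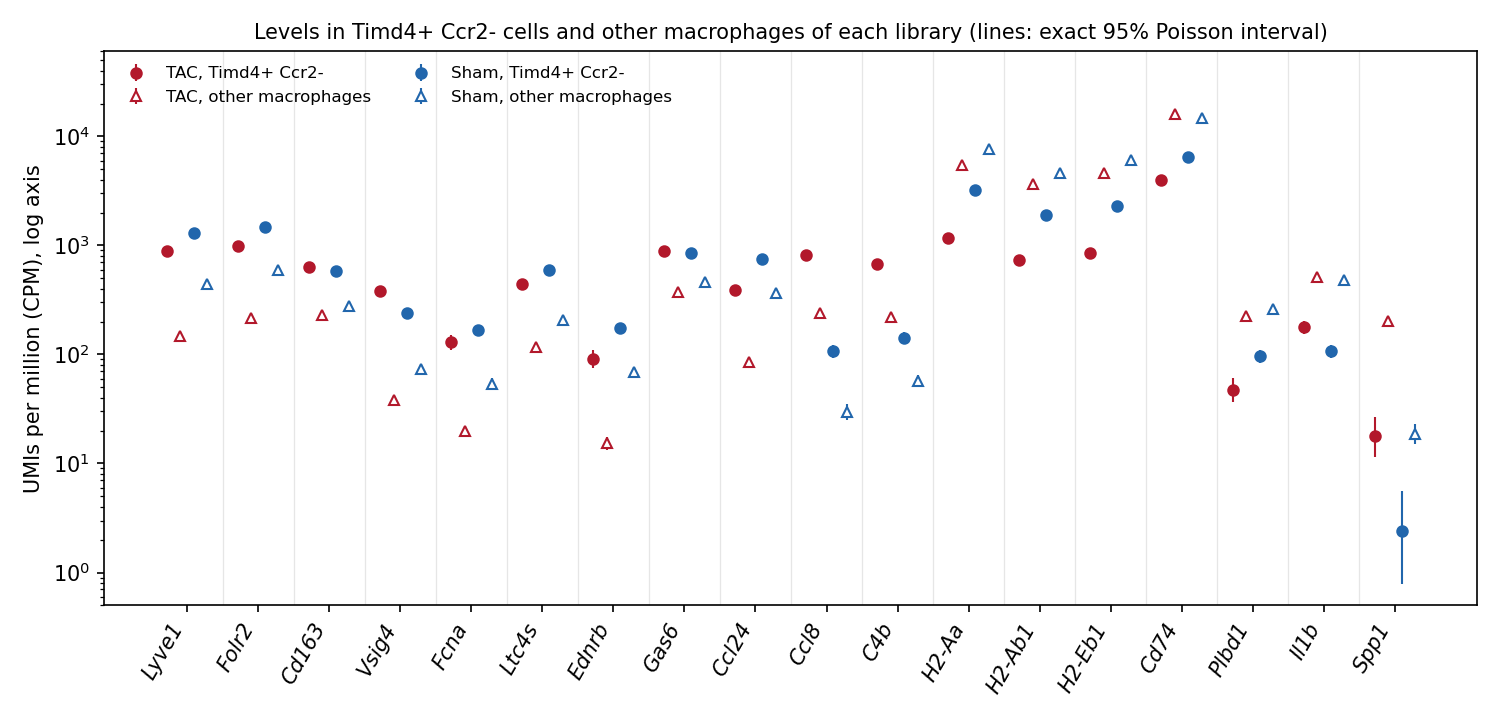
Level of 18 genes in CPM (log axis) in TAC members, other TAC macrophages, Sham members and other Sham macrophages, in that order from left to right within each gene; lines are exact 95% Poisson intervals. Filled circles (members) lie above open triangles (others) of the same colour from Lyve1 to C4b, and below them from H2-Aa to Spp1.

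Most measured MHC class II genes were at least 2-fold lower in members. Of the 14 genes on that list, 10 were measured in each library, and 7 in TAC and 6 in Sham were at least 2-fold lower in members. The list median was -1.79 in TAC and -1.22 in Sham. H2-Aa, the alpha chain of I-A (chr17:34282744-34287823), was at 1158 CPM in TAC members and 5462 CPM in other TAC macrophages, and at 3189.7 CPM in Sham members and 7651 CPM in others. That was 4.72-fold lower in TAC members (4.48 to 4.97) and 2.40-fold lower in Sham members (2.34 to 2.46). H2-Eb1, the beta chain of I-E, was at 858 and 4651 CPM in TAC members and others, and at 2282 and 6097 CPM in Sham members and others. Cd74, the invariant chain that escorts these molecules, was at 4007 and 16174.5 CPM in TAC members and others, and at 6491 and 14651 CPM in Sham members and others. The order of the groups was the same for the 3 chains H2-Aa, H2-Ab1 and H2-Eb1, with TAC members lowest, then Sham members, other TAC macrophages and other Sham macrophages. Ciita, the master regulator of the locus, was at 21.1 and 70.1 CPM in TAC members and others, and at 45.2 and 121 CPM in Sham members and others. Not every presentation gene reached 2-fold: the protease Ctss had log2 ratios of -0.23 in TAC and -0.13 in Sham.

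The size of this gap moved with the Ccr2 condition. With the condition left out, so that every Timd4+ cell was a member, the TAC log2 ratios were -0.64 for H2-Aa, -0.48 for H2-Ab1, -0.80 for H2-Eb1 and -0.77 for Cd74. With it kept and Ccr2+ cells removed from the others instead, they were -1.52 for H2-Aa, -1.45 for H2-Ab1 and -1.72 for H2-Eb1. The direction of these chains and of Cd74 held in both settings, while Ciita was at 0.09 in the first. The list median lay between -2.07 and -0.49 in TAC and between -1.43 and -0.92 in Sham over 12 alternatives.

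Within the members the class II level was spread widely. The summed level of H2-Aa, H2-Ab1, H2-Eb1 and Cd74 per cell had a median of 288 CPM in TAC members and 26719 CPM in other TAC macrophages. In Sham it was 6021 CPM in members and 36267 CPM in others. No UMI of the 4 genes was seen in 25 TAC members (24.8%) and 4.52% of other TAC macrophages, and in 46 Sham members (13.6%) and 3.85% of other Sham macrophages. At the other end 18.8% of TAC members and 42.4% of Sham members had at least 10000 CPM, as did 69.2% of other TAC and 77.0% of other Sham macrophages. Members thus held both class II low and class II high cells, and TAC members had the larger share at 0 in spite of their greater depth.

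**Figure D4:**
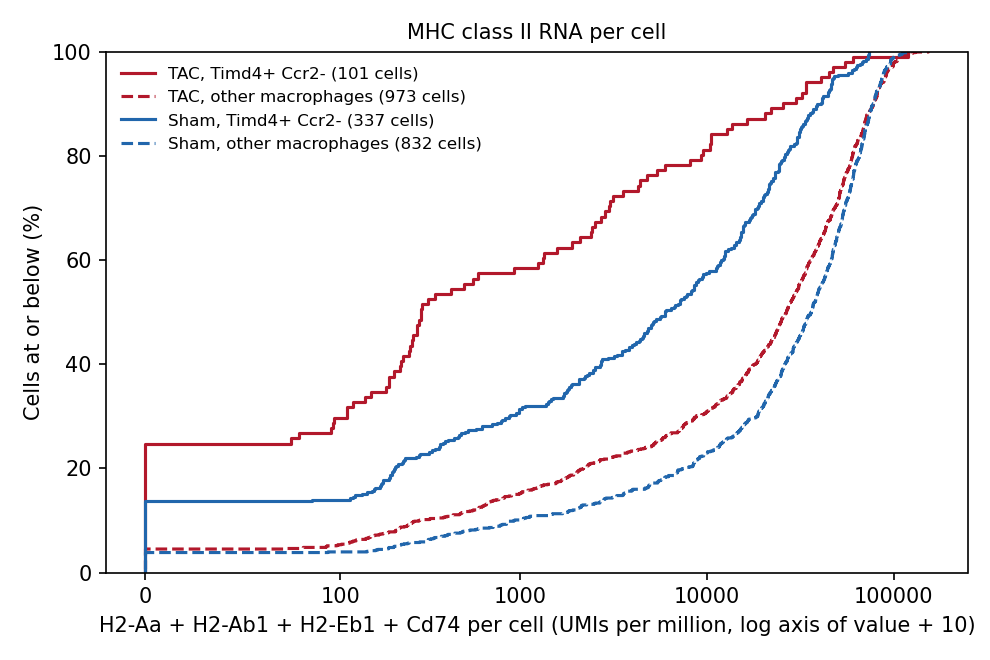
Cumulative share of cells (vertical axis, percent) at or below a summed level of H2-Aa, H2-Ab1, H2-Eb1 and Cd74 per cell (horizontal axis, CPM, log axis of value + 10), for TAC members, other TAC macrophages, Sham members and other Sham macrophages. The TAC member curve lies highest over most of the range, with 24.8% of cells at 0 and 18.8% at 10000 CPM or more.

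The members without a UMI of Lyve1 had a higher level of H2-Aa than those with it, although they held the smaller part of its UMIs, 497 without Lyve1 against 986 with it in TAC and 1244 against 5391 in Sham. Those without were 12 of the 101 TAC members and 39 of the 337 Sham members, at median depths of 8035 UMIs in TAC and 3922 in Sham, below the 11247 and 5301.5 of members with Lyve1. H2-Aa was at 5103 CPM in TAC members without Lyve1 and 834 CPM in those with it, 6.12-fold higher (5.48 to 6.82). In Sham it was at 7823 CPM without and 2806 CPM with Lyve1, 2.79-fold higher (2.62 to 2.97). Vsig4 went the other way: it had 0 UMIs in the TAC members without Lyve1 against 414 CPM in those with it, and was at 25.2 CPM against 257 CPM in Sham. Folr2 was at 452 against 1038 CPM in TAC and 635 against 1530 CPM in Sham, and F13a1 at 1027 against 1957 CPM and 1270 against 2639 CPM. The level of Cd163 was 595 CPM without and 634 CPM with Lyve1 in TAC (ratio 0.939, 0.706 to 1.23), and 409 CPM without and 594 CPM with Lyve1 in Sham (ratio 0.688, 0.528 to 0.884). Along the number of Timd4 UMIs, H2-Aa was at 1153, 1668 and 815 CPM in TAC members with 1, 2 and 3 or more, and at 4037, 3354 and 2459 CPM in Sham members.

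Several genes of monocytes and of inflammatory macrophages were lower in members. The monocyte and recruited macrophage list had a median of -0.94 over 17 measured genes in TAC, with 8 at least 2-fold lower and 0 higher, and of -0.14 over 14 genes in Sham, with 3 lower and 1 higher. With the Ccr2 condition left out the TAC median was -0.14, and with Ccr2+ cells removed from the others the Sham median was 0.28. Il1b, the inflammatory cytokine, was at 177 CPM in TAC members and 516 CPM in other TAC macrophages, and at 107 CPM in Sham members and 482 CPM in others. Plbd1, a phospholipase-like gene of monocytes, was at 47.6 and 227 CPM in TAC members and others, and at 96.6 and 260.3 CPM in Sham members and others. Both were lower in members of both libraries. Emb, the adhesion protein embigin, had log2 ratios of -2.54 in TAC and -2.51 in Sham, Ramp1, a subunit of the calcitonin gene-related peptide receptor, -2.14 and -2.96, and Rgs1, a brake on chemokine receptor signalling, -1.90 and -1.55. Cd52, a small surface glycoprotein of leukocytes, was at 576 and 1283 CPM in TAC members and others, and at 271 and 705 CPM in Sham members and others. The lymphocyte genes Cd3g and Itgb7 were among the 10 lowest by the naming rule as well, and the summed T and NK cell markers Cd3e, Cd3d, Trbc2 and Nkg7 stood at 32.8 CPM in TAC members and 198 CPM in other TAC macrophages, against 102 and 202 CPM in Sham members and others. Their part in these ratios was not tested. Most of these deficits were smaller with the Ccr2 condition left out, where most TAC member UMIs came from cells with both Timd4 and Ccr2. The TAC log2 ratio was then -0.34 for Il1b in place of -1.53, -0.14 for Plbd1 in place of -2.23 and -0.41 for Emb in place of -2.54. It was -0.80 for Ramp1 in place of -2.14, -0.74 for Rgs1 in place of -1.90 and -0.24 for Cd52 in place of -1.15. That of Itgb7 was 0.33 in place of -1.98.

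Spp1 and Mmp12, genes of scar-associated macrophages, were lower in members. Spp1, osteopontin, was at 18.0 CPM in TAC members and 204 CPM in other TAC macrophages, and at 2.40 CPM in Sham members and 18.6 CPM in others. Mmp12, a macrophage elastase, had 1 UMI in TAC members against 54.6 CPM in other TAC macrophages, and was at 2.88 and 72.6 CPM in Sham members and others. Lgals3, galectin-3, had log2 ratios of -1.23 in TAC and -0.59 in Sham, and the tetraspanin Cd9 -0.89 and -0.89. These genes do not stand for their list, which had medians of 0.21 over 16 genes in TAC and 0.34 over 15 in Sham, with 3 and 1 genes at least 2-fold lower, and which also holds lipid and lysosome genes common to macrophages. Without the Ccr2 condition the log2 ratio of Spp1 was -2.36 in TAC and 0.47 in Sham, and that of Lgals3 -0.06 in TAC. That of Mmp12 was then -0.53 in place of -4.96 in TAC and -1.25 in place of -4.24 in Sham. At 2500 UMIs per cell with the condition kept, Mmp12 was at -0.57 in TAC.

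Transcription factors differed little between members and other macrophages. Of 35 on the list, 25 were measured in TAC and 24 in Sham, with medians of 0.03 and 0.02. Maf was at 565 and 383 CPM in TAC members and others, and at 641 and 415 CPM in Sham members and others, higher in members but by less than 2-fold. Id2, an inhibitor of E proteins used in dendritic cell development, was at 175 and 414 CPM in TAC members and others, and at 334 and 537 CPM in Sham members and others. Runx3, a factor of lymphocytes and mucosal phagocytes, had log2 ratios of -0.68 in TAC and -1.47 in Sham. It was the gene on the list lowest in Sham members, while Id2 was the one at least 2-fold lower in TAC members. Without the Ccr2 condition Id2 was at 0.17 in TAC and Runx3 at -0.71 in Sham.

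Between the libraries, TAC members had more RNA of several glucocorticoid-responsive and interferon-response genes, of the complement genes C4b and C2 and of the chemokine Ccl8, and less of several heat shock genes, and C4b, Ccl8 and the named glucocorticoid and heat shock genes differed the same way in the other macrophages. Of 3312 genes measured, 116, or 3.5%, were at least 2-fold higher in TAC members and 62, or 1.87%, at least 2-fold lower, 5.37% in either direction. In other macrophages 91 of 3294, or 2.76%, were at least 2-fold higher and 46, or 1.4%, at least 2-fold lower, 4.16% in either direction. The median over all measured genes was -0.13 in members and -0.06 in the others, and log2 ratios are given without subtracting it.

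Of the 18 glucocorticoid-responsive genes, 16 were measured in members and 7 were at least 2-fold higher in TAC, with a median of 0.93, and 5 of 14 were higher in the other macrophages, with a median of 0.66. Fkbp5, a chaperone partner of the glucocorticoid receptor and among its most direct targets (chr17:28399094-28517527), was at 108 CPM in TAC members and 16.3 CPM in Sham members. In the others it was at 96.3 CPM in TAC and 16.5 CPM in Sham. The member ratio was 6.59 (4.50 to 9.90), and both kinds of TAC macrophage were above both kinds of Sham macrophage. Ddit4, an inhibitor of mTOR, was at 71.1 CPM in TAC members and 1.92 CPM in Sham members, where 4 UMIs were counted, and at 92.0 and 3.33 CPM in the others of TAC and Sham. Its log2 ratio in members was 4.62, or 2.77 with a pseudocount of 10 CPM. Klf9 had log2 ratios of 1.93 in members and 2.03 in the others, Tsc22d3, which encodes GILZ, 1.25 and 1.37, and the clock gene Per1 1.76 and 1.62. These genes were thus higher in TAC in members and in other macrophages alike, and no difference between the 2 kinds of cell was tested.

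Several heat shock genes were lower in TAC in both kinds of macrophage, with a median of -0.91 over 14 genes in members, 7 of them at least 2-fold lower, and of -0.98 over 14 genes in the others, also with 7. Hspa1b, the inducible chaperone HSP70, was at 133 CPM in TAC members and 925 CPM in Sham members, 6.97-fold lower (5.95 to 8.20), and at 252 and 980.2 CPM in the others of TAC and Sham. Its near-identical copy Hspa1a, with which it could share reads, was at 209 CPM in TAC members and 749 CPM in Sham members. Hspb1, the small chaperone HSP27, was at 53.9 CPM in TAC members and 295 CPM in Sham members, and at 35.0 and 170.5 CPM in the others of TAC and Sham. At 2500 UMIs per cell the log2 ratio of Hspa1b in members was -2.10 in place of -2.79.

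The complement genes C4b and C2 and the chemokines Ccl8 and Ccl12 were among those higher in TAC members. C4b had a log2 ratio of 2.22 in members (4.70-fold, 4.11 to 5.38) and 1.93 in the others, with the levels given above. C2 had one of 2.56 in members (6.42-fold, 3.89 to 11.1), or 1.87 with a pseudocount of 10 CPM in place of 1. Ccl8 had one of 2.94 in members (7.73-fold, 6.68 to 8.97) and 2.97 in the others. Ccl8 was also seen in more members, in 52.5% of TAC members and 18.4% of Sham members at their own depths, which were greater in TAC. At 2500 UMIs per cell it was seen in 31.1% of 45 TAC members and 9.54% of 241 Sham members. Ccl12, a monocyte attractant, was at 1122 CPM in TAC members and 284 CPM in Sham members, with 34.8% of the TAC member UMIs in 1 cell. Other chemokines were lower: Ccl2 was at 723 CPM in TAC members and 1384.5 CPM in Sham members, and Ccl4 and Ccl24 had log2 ratios of -0.95 and -0.96. When Ccr2 was not used that of Ccl24 was -1.67, and at 2500 UMIs per cell that of Ccl4 was 0. Over 15 measured chemokines the median was -0.71, with 3 at least 2-fold higher and 3 lower. Of 10 measured complement genes 2 were at least 2-fold higher and 0 lower, with a median of -0.11.

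Interferon-response genes had a median of 0.56 over 19 genes in members, with 7 at least 2-fold higher in TAC and 0 lower, and of 0.34 over 18 genes in the others, with 3 higher. Ifi27l2a, an interferon-induced gene, was at 3581 CPM in TAC members and 1006 CPM in Sham members, and at 1731 and 714 CPM in the others of TAC and Sham. TAC members were the highest group. Isg15, a ubiquitin-like modifier, had log2 ratios of 1.19 in members and 1.20 in the others, or 1.87 in members at 2500 UMIs per cell, and Irf7, the factor that amplifies interferon production, 1.04 and 1.69. Rsad2, an antiviral enzyme, had one of 2.29 in members, with 40.1% of the TAC member UMIs in 1 cell. The list median in members lay between 0.28 and 1.08 over the alternatives.

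Several other genes seen in at least 30% of cells were higher in TAC members. Jdp2, a factor that binds AP-1 sites, was at 177 CPM in TAC members and 32.2 CPM in Sham members, and at 157 and 31.2 CPM in the others of TAC and Sham. Vcam1, an adhesion molecule also found on some tissue macrophages, was at 125 CPM in TAC members and 25.5 CPM in Sham members, and at 141 and 54.9 CPM in the others of TAC and Sham. Runx3 was at 146 CPM in TAC members and 32.7 CPM in Sham members, with log2 ratios of 2.13 in members and 1.34 in the others. These genes were also higher in TAC in the other macrophages. Ucp2, a mitochondrial carrier linked to the uptake of dying cells, had log2 ratios of 1.72 in members and 1.46 in the others, and Fabp4, a fatty acid carrier that endothelial cells also make, 2.59 and 3.48. Fabp4 was seen in 44.6% of TAC members, with 22.5% of its TAC member UMIs in 1 cell, and its ratio in members was 1.75 at 2500 UMIs per cell and 3.49 with marked doublets removed. Nxpe5 was at 51.6 CPM in TAC members and 7.69 CPM in Sham members, with a log2 ratio of 2.60, or 1.80 with a pseudocount of 10 CPM.

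Some resident genes were lower in TAC members than in Sham members. The resident list had a median of -0.44 over 23 measured genes in members, with 4 at least 2-fold lower, and of -0.93 over 21 genes in the others, with 9 lower. In members Lyve1 and Folr2 had log2 ratios of -0.57 and -0.56, and Cd163 of 0.12 (ratio 1.09, 0.995 to 1.19). Vsig4 was higher in TAC members, 1.60-fold (1.41 to 1.81), while in the others it was lower in TAC, with a log2 ratio of -0.93. With the Ccr2 condition left out, the member log2 ratio was -0.11 for Vsig4 and -1.22 for Lyve1, so the Vsig4 direction was not seen there. Most TAC member UMIs of that setting came from cells with both Timd4 and Ccr2. Fxyd2, a regulator of the sodium pump, was at 164 CPM in TAC members and 436 CPM in Sham members, with a log2 ratio of -1.40, or -0.67 at 2500 UMIs per cell. The lectin Mgl2, a galactose receptor close in sequence to Clec10a, was at 348 CPM in TAC members and 996 CPM in Sham members, and at 321 and 1025 CPM in the others of TAC and Sham. Retnla, a product of macrophages exposed to IL-4, had 6 UMIs in TAC members (4.69 CPM) against 519 CPM in Sham members, and was at 49.0 and 336 CPM in the others of TAC and Sham. Its log2 ratio in members was -6.51, or -2.16 at 2500 UMIs per cell. Cx3cr1, the fractalkine receptor, was at 13.3 CPM in TAC members and 71.1 CPM in Sham members, and at 16.3 and 142 CPM in the others of TAC and Sham.

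Of 9 measured class II genes 3 were at least 2-fold lower in TAC members, with a list median of -0.70, against 0 of 10 and a median of -0.34 in the others. H2-Aa was 2.75-fold lower (2.60 to 2.91) and Cd74 1.62-fold lower in TAC members than in Sham members. In the others their log2 ratios were -0.49 and 0.14. With the Ccr2 condition left out, the member log2 ratios were -0.22 for H2-Aa, 0.01 for H2-Ab1, -0.16 for H2-Eb1 and 0.32 for Cd74. This difference between TAC and Sham members was thus small or absent in that setting, where most TAC member UMIs came from cells with both Timd4 and Ccr2. At 2500 UMIs per cell with the condition kept they were -1.06 for H2-Aa, -0.84 for H2-Ab1 and -0.48 for Cd74. The TAC cells with both Timd4 and Ccr2 had H2-Aa at 4784 CPM, and the Sham cells with both had it at 5635 CPM.

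**Figure D5:**
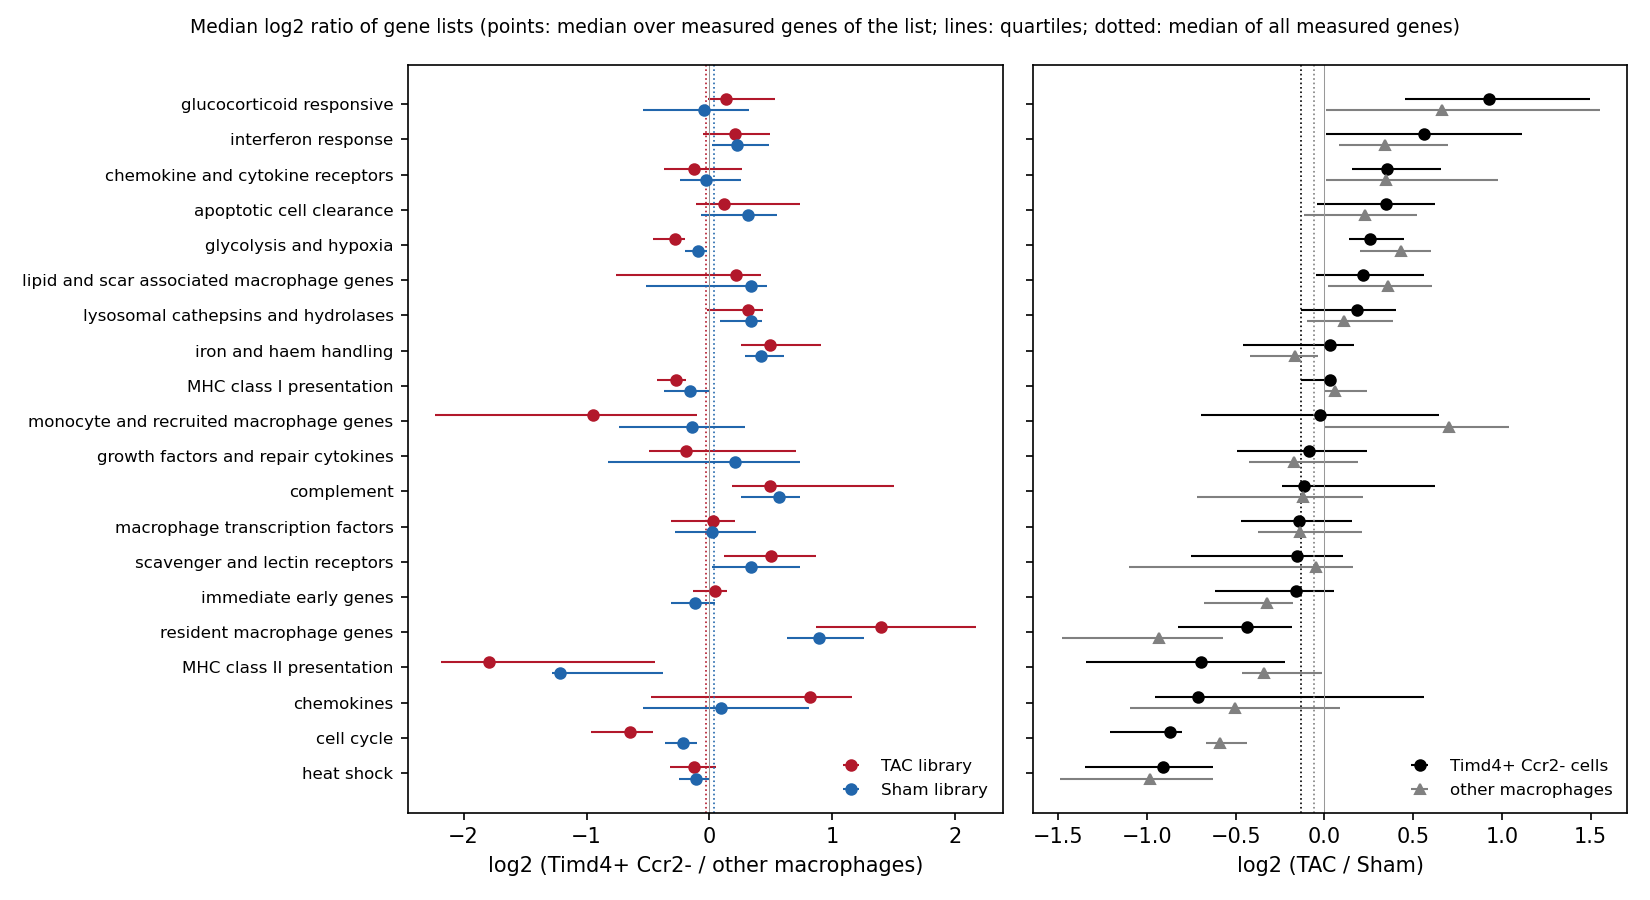
Median log2 ratio of the 20 gene lists for members over other macrophages (left panel, TAC library above Sham library within each list) and for TAC over Sham (right panel, members above other macrophages). Lines are quartiles over the measured genes of a list and dotted lines the median of all measured genes; the resident list stands at 1.40 in TAC and 0.89 in Sham on the left, and the heat shock list at -0.91 in members and -0.98 in others on the right.

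Some of the genes highest in TAC members over Sham members are linked to other blood and vessel cells, and several rested on few members. Where this RNA came from was not tested. Igkc, an immunoglobulin light chain, had 98.9% of its TAC member UMIs in 1 cell. S100a8, an alarmin of neutrophils, was at 1054.5 CPM in TAC members and 43.7 CPM in Sham members, and was seen in 11.9% of TAC members. Ifitm1, an interferon-induced membrane protein, was seen in 12.9% of TAC members. The neutrophil markers S100a8, S100a9, Retnlg and Csf3r summed to 2475 CPM in TAC members and 2703 CPM in other TAC macrophages, against 162 CPM in Sham members and 210.5 CPM in others. The endothelial markers Pecam1, Cdh5, Cldn5 and Egfl7 summed to 170.3 and 143 CPM in TAC members and others, against 33.2 and 23.1 CPM in Sham members and others, with Cldn5 at 0 in Sham members. The B cell markers Cd79a, Cd79b, Ms4a1 and Ly6d summed to 244 and 210.2 CPM in TAC members and others, against 187 and 257 CPM in Sham members and others. The neutrophil and endothelial sums were thus higher in both kinds of TAC macrophage. The B cell sum was higher in TAC members, with 27.6% of it in 1 cell, and lower in the other TAC macrophages. Cells with at least 2 UMIs in at least 2 of the 4 markers of another cell type were counted, without the fibroblast, monocyte and red-cell sets. Of other macrophages, 35.5% in TAC and 16.8% in Sham met this limit. Members that met it were 26 in TAC (25.7%) and 36 in Sham (10.7%). Without them the TAC over Sham log2 ratio was 3.47 in place of 7.11 for Igkc, 1.80 in place of 4.56 for S100a8, 1.46 in place of 3.74 for S100a9, 1.96 in place of 4.62 for the retinol carrier Rbp7, and 0.34 in place of 5.52 for Ifitm1. The ratios of Ccl8, C4b, Fkbp5, Jdp2, Klf9, Runx3 and Hspa1a in members moved by less than 1.5-fold without them and at equal depth.

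Markers of further cell types were also summed. The fibroblast markers Pdgfra, Lum, Gsn and Mgp summed to 714 CPM in TAC members and 649 CPM in other TAC macrophages, against 358 and 434 CPM in Sham members and others, and to 49238 CPM in TAC cells rich in fibroblast genes. Of the dendritic cell markers, Xcr1 and Clec9a were at 0 in members of both libraries. The monocyte markers Ly6c2, Plac8, Chil3 and Ace summed to 69.5 CPM in TAC members and 183 CPM in other TAC macrophages, against 29.8 and 58.5 CPM in Sham members and others, and Chil3 was at 0 in TAC members. Of the TAC member sum 57.3% lay in 1 cell. Cells rich in fibroblast genes had more of this sum than any group of macrophages, 464 CPM in TAC and 244 CPM in Sham. Globin and other red-cell markers summed to 3019.8 CPM in TAC members, 74.7% of it in 1 cell, and to 731 CPM in other TAC macrophages, against 54.8 and 712 CPM in Sham members and others. Lymphatic endothelial, mural, Schwann and cardiomyocyte markers summed to 13.3, 92.2, 0 and 26.6 CPM in TAC members and to 2.88, 7.69, 0.961 and 35.1 CPM in Sham members, with 69.5% of the mural sum of TAC members in 1 cell. The mural sum was 16.1 CPM in other TAC macrophages and 9.22 CPM in other Sham macrophages.

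The difference of the contrast itself, members over others in TAC less the same in Sham, was taken for each gene without a test. Vsig4 and Ednrb had the greatest excess in TAC by the naming rule, with log2 ratios of 3.29 and 1.68 for Vsig4 in TAC and Sham and 2.48 and 1.32 for Ednrb. For Ednrb both kinds of TAC macrophage were lower than their Sham counterparts, and the difference was larger in the others, at -2.10 against -0.93 in members. Lmo4, a LIM-domain cofactor, was at 56.2 and 64.3 CPM in TAC members and others, and at 38.0 and 98.3 CPM in Sham members and others. At the other end, H2-Eb1, H2-Ab1 and H2-Aa were lower in TAC members than in others by more than in Sham, as described above, and Stmn1, a microtubule regulator of dividing cells, had log2 ratios of -1.42 in TAC and 0.09 in Sham. Stmn1 was at 31.2 CPM in TAC members against 145 CPM in Sham members. When Ccr2 was not used the log2 ratio of Stmn1 in TAC was 0, and that of Lmo4 in Sham was -0.16 in place of -1.35. In that setting the class II gap was smaller in TAC than in Sham. H2-Aa was at -0.64 in TAC and -1.01 in Sham, H2-Ab1 at -0.48 and -0.94, and H2-Eb1 at -0.80 and -1.14. The wider TAC gap of these chains was thus not seen without the Ccr2 condition. There the cells with both genes held more UMIs than the cells with Timd4 and no Ccr2 in TAC, but fewer in Sham. Of 22 cell cycle genes 4 were measured for members in TAC, with a median of -0.65, and 5 in Sham, with a median of -0.22.

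The remaining lists are described by their medians. Chemokine and cytokine receptors had medians of -0.13 in TAC and -0.03 in Sham for members over others, and of 0.35 in members and 0.34 in others for TAC over Sham, beside -0.13 and -0.06 over all measured genes. Immediate early genes had medians of 0.04 and -0.12 for members over others, and of -0.16 and -0.32 for TAC over Sham in members and others. MHC class I genes had medians of -0.28 and -0.16 for members over others, in contrast to the much lower class II genes, and of 0.03 and 0.06 for TAC over Sham in members and others. Glycolysis and hypoxia genes had medians of -0.28 and -0.09 for members over others, and of 0.26 in members and 0.43 in others for TAC over Sham. For growth factors and repair cytokines 5 genes were measured in TAC and 8 in Sham, with medians of -0.19 and 0.21; Igf1, insulin-like growth factor 1, was at 343 and 202 CPM in TAC members and others and at 392 and 259 CPM in Sham members and others.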

How the data were processed

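The authors deposited 1 matrix of raw UMI counts per library, written by Cell Ranger 3.1.0, per the file headers. The submitters' processing notes name the genome build mm10 and Seurat; which annotation was counted is not given in the sources used here. From these counts, barcodes with at least 500 genes, at least 1000 UMIs and at most 15% mitochondrial UMIs were kept: 8000 of 8901 in TAC (96003109 UMIs over all barcodes) and 7964 of 8426 in Sham (42490230 UMIs). Members and other gated macrophages were found by the gene rule, their UMIs were summed in each library and scaled to CPM, and a pseudocount of 1 CPM was added before log2 ratios were taken. The 101 TAC members held 1280226 UMIs and the 337 Sham members 2080139. Intervals of levels, shares and ratios are exact (Poisson, Clopper-Pearson, conditional binomial); no test and no p-value was computed. Cells rich in fibroblast genes, with at least 1% of UMIs from them and fewer than 3 gate genes, gave the free-RNA background.

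Lists were measured over genes with at least 50 CPM in either kind of cell. The genes named had at least 50 CPM and 20 UMIs, were seen in at least 10% of cells where higher, and there were not under 20% of their CPM in cells rich in fibroblast genes; mitochondrial, ribosomal protein, haemoglobin, Y-linked and unnamed genes, Xist and the genes of the rule were left out. By this rule the 10 genes highest and lowest in members in both libraries, the 10 highest and lowest in TAC members over Sham members, the 5 with the largest difference of contrast each way and up to 4 genes of each of the 20 lists were selected, with Lyve1, Folr2 and Cd163. Not all genes selected are described above, so the text does not give these rankings in full. Cbr2, Ccl2, Ccl9, Ctss, F13a1, Maf, Mrc1 and Tsc22d3, the limit of 30% of cells, the alternative without cells carrying markers of another type and the equal depth of 4000 UMIs were chosen after values were seen. The members and the gene lists were chosen with earlier results of these data known. Doublets were kept, as the rule has no such step; Scrublet at an expected rate of 0.07 was an alternative. Coordinates are from GENCODE vM21 (GRCm38, the build also named mm10), in which 516 of 516 tabulated genes were found. Python 3.11.15, numpy 2.4.6, scipy 1.17.1, pandas 2.3.3 and Scanpy 1.11.5 were used, and the summing and interval steps were tested on simulated data.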

Additional observations from a re-analysis of the deposited data

Results flagged for a closer look

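For 7 genes measured in both libraries the ratio of members over other macrophages had opposite signs in TAC and Sham, with a log2 ratio of at least 0.5 either way and counting intervals that leave out 1; the difference was not tested, and most rest on few cells. Cxcl10, a chemokine induced by interferon, had a log2 ratio of 1.18 in TAC and -1.73 in Sham, with 59.2% of the TAC member UMIs in 1 cell. Fn1, fibronectin, had -3.17 in TAC and 0.98 in Sham, with 98.0% of the Sham member UMIs in 1 cell. The globin genes Hba-a1 (2.29 in TAC and -3.38 in Sham), Hbb-bs (1.92 and -3.6) and Hbb-bt (2.45 and -4.02) had between 72.8% and 84.1% of their TAC member UMIs in 1 cell. Igkc had 1.33 in TAC and -0.74 in Sham, with 98.9% of the TAC member UMIs in 1 cell, and the B cell receptor subunit Cd79a had 0.51 in TAC and -0.87 in Sham.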

How the results depend on the processing

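With 1 library per group no replicate could be left out. No paired analysis was possible because each group is 1 library and the labels pair none. Ratios in TAC members rest on 101 cells, so lists and counts leave out genes under 50 CPM, and the ratios of Spp1 in Sham and of Retnla in TAC, below that level, rest on few UMIs. Over 12 alternatives, 4873 gene values stayed within the counting interval of the reported value, 1215 left it, and 32 values of genes past 2-fold changed sign; of the list medians 699 stayed within an order-statistic interval over the genes of their list, 20 left it and 1 changed sign. The direction of the TAC share and of the resident, MHC class II (members over others), heat shock and glucocorticoid (TAC over Sham) medians held in all alternatives. At 2500 UMIs per cell members were chosen again on the thinned counts. TAC members were then 45 cells, so genes near 50 CPM rest on few UMIs there. The TAC and Sham shares were 4.31% and 22.5% (ratio 0.192). Genes at least 2-fold higher and lower in members were 281 and 198 in TAC, 48 were higher in Sham, and 398 and 306 differed between TAC and Sham members. The ratio of members over others turned in TAC for Igkc (-3.92) and Retnla (1.95), and that of TAC over Sham for Mmp12 (3.38). At 4000 UMIs the shares were 5.93% and 32.7% (0.181). With at least 2 Timd4 UMIs they were 4.75% and 17.6%, 107 genes were lower in TAC members than in Sham members, Rbp7 in Sham turned to -0.48 and Mmp12 between TAC and Sham to 1.27. With the Ccr2 condition left out the shares were 16.01% and 37.9% (0.423), with 14 genes higher and 18 lower in TAC members than in others and 27 lower in Sham members. There the ratios of members over others turned in TAC for Igkc (-0.0448), Itgb7 (0.33), Ly6c1 (-0.48), Trbc2 (0.35), Ciita (0.0900), Cxcl10 (-0.22), Id2 (0.17), Napsa (0.33) and the cell cycle median (0.0416), and in Sham for Itgb7 (0.0596), Trbc2 (0.33), Napsa (0.00985) and Spp1 (0.47). Those of TAC over Sham in members turned for H2-Ab1 (0.0147), Ciita (0.00935), Plbd1 (0.35), Trbc2 (0.33), Mmp12 (0.28) and Thbs1 (0.62). With Ccr2+ cells removed from the others, 41 genes were lower in TAC members, and Itgb7 (0.71) and Retnla (1.93) in TAC and Itgb7 (0.98), Trbc2 (0.27) and Napsa (0.18) in Sham turned. Without cells carrying markers of another type, Igkc (-0.14) and Ly6c1 (-0.55) in TAC and Ifitm1 (0.55) and Fabp4 (-0.11) in Sham turned. With a minimum of 20 CPM, which lets in genes of low count, 105 and 190 genes were higher and lower in members in TAC and 134 lower in Sham; between TAC and Sham 232 and 153 were higher and lower in members and 193 and 73 in others. With cells weighed alike 46 genes were higher in Sham members than in others. The causes of these changes were not tested. Counts of genes in the alternatives are given without a share. The number of genes measured depends on the setting, so these counts are not comparable with the shares of the main setting.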
